A study of Mus musculus with 27 samples.

Results

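Gene expression in the whole fetal brain of AKR/J mice was compared with that of Cav1-null mice on gestational day (d) 17, across all genes of the deposited read-count table. The comparison took the 3 AKR/J and the 3 Cav1-null libraries that the labels give for d17, 6 of the 27 libraries of the series. The series also holds both strains on d12 and d15 and C57BL/6J on the 3 days, with 3 libraries in each group of strain and day. Females of each strain were bred in timed pregnancies in which the day of the vaginal plug was day 1, and each library is labelled as the brain of a female fetus. AKR/J is an inbred strain. Cav1-null is B6.Cg-Cav1tm1Mls/J, a congenic strain that carries a targeted allele of Cav1 on a C57BL/6J background and can retain donor sequence around the targeted gene. The Cav1 allele is therefore not the only genetic difference between the 2 groups, and allele and strain background cannot be told apart in this comparison. The series describes both strains as short-lived and C57BL/6J as long-lived. The labels do not give the litter of a fetus, so the p-values measure the spread between these libraries, which may include litter mates.

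By d17 the fetal mouse brain holds dividing radial glia in the ventricular zone, intermediate progenitors in the subventricular zone, young neurons that begin to form synapses, and the first glial precursors. Cav1 encodes caveolin-1, the coat protein of caveolae, which in the brain are found mainly in the cells of blood vessels. Inbred strains also differ in the sequence and number of gene copies, so that reads of one strain can be placed differently on a reference genome made from C57BL/6J.

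Cav1, the targeted gene (chromosome 6, 17306140 to 17341451, GRCm39), was read in AKR/J at 33, 29.9 and 32.6 CPM and in Cav1-null at 0.278, 0.406 and 0.551 CPM. CPM is the read count of a gene divided by all reads on genes in its library and multiplied by 1000000. The groups did not overlap, and the difference was the one that the labels state (log2 fold change AKR/J over Cav1-null 6.27 with an SE of 0.18, adjusted p = 3.83e-10 by the quasi-likelihood test of edgeR, adjusted after Benjamini and Hochberg). In C57BL/6J on d17, Cav1 was at 31.9, 36.8 and 43 CPM. Cav2, which encodes the partner protein of caveolin-1 and lies next to Cav1, was lower in AKR/J, with 13.6, 15.4 and 16.9 CPM against 33.3, 22.4 and 29.8 CPM (log2 fold change -0.88 with an SE of 0.16, adjusted p = 0.00299). In C57BL/6J on d17, Cav2 was at 10.1, 26.5 and 16 CPM, from below AKR/J to within the range of Cav1-null. The call of Cav2 was lost with all 9 d17 libraries in 1 model, but not when C57BL/6J replicate 1 was left out of it. The other 4 tested genes of the caveolins and cavins were not called. Xist, the RNA of the inactive X chromosome, was at 4674 to 6657 CPM in the 6 libraries, and 4 genes of the Y chromosome summed to at most 0.209 CPM.

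The 6 libraries held 26363697 to 29035087 reads on genes. Other libraries used beside them stood apart from their labels or groups. The library labelled Cav1-null d12 replicate 2 had 3.67 CPM of Xist and 425 CPM of the 4 Y genes, and AKR/J d15 replicate 3 had 3.42 CPM of Xist and 0 CPM of the Y genes, although both are labelled female. The library labelled AKR/J d12 replicate 1, also labelled female, had 34.4 CPM of the Y genes. The 3 C57BL/6J libraries of d17 differed among themselves at the 68 genes with the clearest strain difference (1.5 or more on the log2 scale in either direction): 15, 1 and 4 of these genes lay near the AKR/J level in replicates 1, 2 and 3, and 35, 53 and 33 lay near the Cav1-null level. C57BL/6J values are therefore given by library. C57BL/6J replicate 1 also stood apart in its list sums, with 1459.6 CPM of connective tissue and cartilage genes against 325 and 382 CPM in replicates 2 and 3 and 15321 CPM of mitochondrially encoded genes against 44276 and 24692 CPM. Brain markers were read throughout the 6 libraries, with sums of 2592 to 3371 CPM for projection neuron genes and 2109 to 2835 CPM for radial glia genes, while epidermis and eye genes summed to 10.9 to 22 CPM.

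Of 20285 genes tested, 2516 (12.4%) were differentially expressed (DE) at an adjusted p under 0.05. In AKR/J, 1163 genes (5.73%) were higher and 1353 (6.67%) were lower. Most differences were small: 759 genes (3.74%) were DE by 2-fold or more, 1757 of the DE genes differed by less, and the median absolute log2 fold change of DE genes was 0.60. The large differences were mostly in one direction, with 152 genes at least 8-fold higher and 75 at least 8-fold lower in AKR/J. The CPM values of the 2 strains did not overlap for 2484 of the DE genes, against 6213 (30.6%) of all genes tested. The median log2 fold change of all tested genes was -0.0028. With the 3 C57BL/6J libraries of d17 added to the model, so that all 9 libraries of the day shared 1 estimate of the spread, 757 genes were DE, and 1432 were DE when C57BL/6J replicate 1 was left out of that model, a choice made after seeing the data. Leaving out 1 library left 1376 to 2337 DE genes, with the lowest number without AKR/J replicate 2.

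The genes that were much higher in AKR/J were mainly processed pseudogenes, which are intronless copies of messenger RNAs inserted elsewhere in the genome. Of 720 tested processed pseudogenes, 110 (15.3%) were higher and 26 were lower in AKR/J, and they made up 86 of the 152 genes that were at least 8-fold higher. Among 15290 protein-coding genes, 905 (5.92%) were higher and 1102 (7.21%) were lower, and 34 were at least 8-fold higher. Among 2468 lncRNAs, 98 (3.97%) were higher and 126 (5.11%) were lower.

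The largest rises among well-read genes (3 or more on the scale of average log2 CPM) included copies of genes for ribosomal proteins and metabolic enzymes. Rpsa-ps10, a copy of the ribosomal protein gene Rpsa on chromosome 3, was at 501, 540.1 and 541 CPM in AKR/J and 0.452, 0.554 and 0.551 CPM in Cav1-null (log2 fold change 9.997 with an SE of 0.12, adjusted p = 1.91e-13). C57BL/6J had 0.194, 0.404 and 0.401 CPM, as low as Cav1-null. Gm8730, a copy of the ribosomal stalk gene Rplp0, had 313, 342 and 351 CPM against 1.74, 1.11 and 0.999 CPM (log2 fold change 8.04 with an SE of 0.16, adjusted p = 1.36e-11). Gm13394, a copy of the glycolytic gene Gapdh, had 49.8, 39.1 and 38.8 CPM against 0.0695, 0.111 and 0.138 CPM (log2 fold change 8.60 with an SE of 0.22, adjusted p = 1.51e-10). No AKR/J library overlapped a Cav1-null library for any of these copies. Gm6166, a copy of the fatty acid binding protein gene Fabp5, had 55.8, 74.8 and 71.9 CPM against 0.0695, 0.185 and 0.276 CPM (log2 fold change 8.56 with an SE of 0.24, adjusted p = 3.14e-10). Its C57BL/6J values of 17.7, 26 and 53 CPM lay between the other strains. Tdg-ps2, a copy of the thymine DNA glycosylase gene, had 24.5, 22.3 and 17.5 CPM in AKR/J and no read in the Cav1-null libraries. Counted against a floor of 3 reads in each Cav1-null library, it was at least 202-fold higher in AKR/J. The other 7 genes with the largest rises were Gm6969, Gm9625, Rpl17-ps5, Rps2-ps10, Tmem181c-ps, Hmga1b and Gm3375, with log2 fold changes from 7.48 to 9.24.

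**Figure D1:**
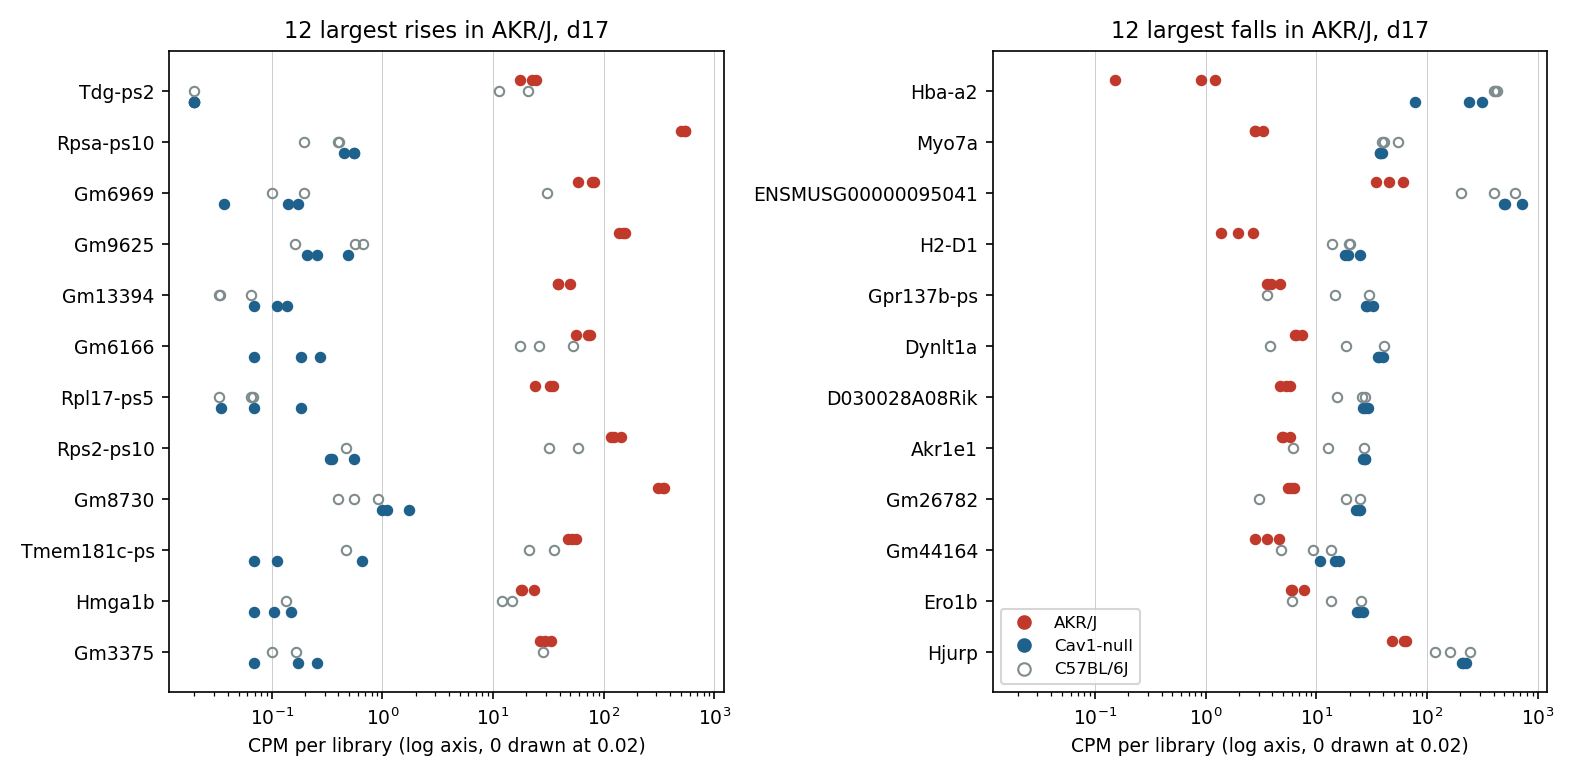
CPM of each d17 library (log axis, with 0 drawn at the left edge) for the 12 genes with the largest rise and the 12 with the largest fall in AKR/J among genes with an average log2 CPM of 3 or more, each point a library of AKR/J, Cav1-null or C57BL/6J. AKR/J and Cav1-null points do not overlap for any gene by the rule that chose them, and C57BL/6J points fall on either side or between.

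Most of these copies are nearly identical to protein-coding genes that were themselves read in these libraries. Of the 110 higher processed pseudogenes, 105 matched a protein-coding gene at another locus at 90% identity or more over at least 50% of their length, with a median identity of 99.0%. To show how little sequence separates a copy from its match, a 90-base stretch of 3 pairs is printed here from the GRCm39 reference genome, 5′ to 3′ on the strand of the gene, with the bases that differ within a pair in capitals. Rpsa-ps10 (chr3:149778922-149779011, minus strand, within its single exon) is shown with the coding sequence of Rpsa (spliced from chr9:119958259-119959189, plus strand), from which it differs at 6 of 885 aligned bases.
Rpsa-ps10: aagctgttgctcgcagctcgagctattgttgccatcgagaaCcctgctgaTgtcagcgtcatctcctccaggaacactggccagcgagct
Rpsa: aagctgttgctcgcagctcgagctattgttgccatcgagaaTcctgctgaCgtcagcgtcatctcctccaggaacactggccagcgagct

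Gm6166 (chr9:57391417-57391506, plus strand, single exon) is shown with the coding sequence of Fabp5 (spliced from chr3:10080123-10080540, plus strand), from which it differs at 5 of 409 aligned bases besides gaps.
Gm6166: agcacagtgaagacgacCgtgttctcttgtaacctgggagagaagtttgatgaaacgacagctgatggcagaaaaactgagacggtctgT
Fabp5: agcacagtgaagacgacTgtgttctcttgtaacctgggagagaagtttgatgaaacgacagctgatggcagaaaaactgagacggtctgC

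Gpr137b-ps, a spliced unprocessed copy that was lower in AKR/J (exons within chr13:12636336-12638786, minus strand), is shown with the coding sequence of Gpr137b, a gene for a lysosomal membrane protein (spliced from chr13:13539720-13542202, minus strand), from which it differs at 5 of 1159 aligned bases besides a gap.
Gpr137b-ps: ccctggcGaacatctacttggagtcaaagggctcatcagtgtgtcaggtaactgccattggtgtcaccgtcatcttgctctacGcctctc
Gpr137b: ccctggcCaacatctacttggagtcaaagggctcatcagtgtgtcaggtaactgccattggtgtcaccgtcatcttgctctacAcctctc

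For some copies, chosen after their values were seen, the reads of the copy and of its match were summed. Where the match has many more reads than the copy, such a sum lies near the match whatever the copy does. Rpsa had 898, 1101 and 1062 CPM in AKR/J and 1738, 1262 and 1573 CPM in Cav1-null and was called lower (log2 fold change -0.56, adjusted p = 0.0133). The sums of Rpsa and Rpsa-ps10 were 1399, 1641 and 1603 CPM against 1738, 1263 and 1574 CPM, so that the strains overlapped. Fabp5 and Gm6166 together had 292, 326 and 318 CPM against 297, 276 and 318 CPM, and these also overlapped. Rplp0 with its copies Gm8730 and Gm9625 summed to 1179, 1366 and 1328 CPM in AKR/J and 1561, 1176 and 1429 CPM in Cav1-null (log2 ratio of the means -0.11). In the opposite direction, Gpr137b-ps had 3.6, 3.91 and 4.68 CPM in AKR/J and 28.4, 32.7 and 27.9 CPM in Cav1-null (log2 fold change -2.85 with an SE of 0.14, adjusted p = 4.89e-08). Gpr137b itself had 46.9, 46.8 and 46.7 CPM against 24, 24.2 and 23.4 CPM and was called higher (log2 fold change 0.99, adjusted p = 7.25e-06). Their sums of 50.5, 50.8 and 51.4 CPM and 52.4, 56.9 and 51.3 CPM differed by a log2 ratio of -0.07. Hmga1b, an intronless copy of the chromatin protein gene Hmga1, had 23.3, 18.1 and 18 CPM against 0.104, 0.148 and 0.0689 CPM (log2 fold change 7.50 with an SE of 0.25, adjusted p = 1.42e-09). Hmga1 had 14.1, 14 and 15 CPM against 33.4, 39.6 and 37.9 CPM, and the sums of 37.4, 32.1 and 33 CPM and 33.5, 39.7 and 38 CPM overlapped.

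**Figure D2:**
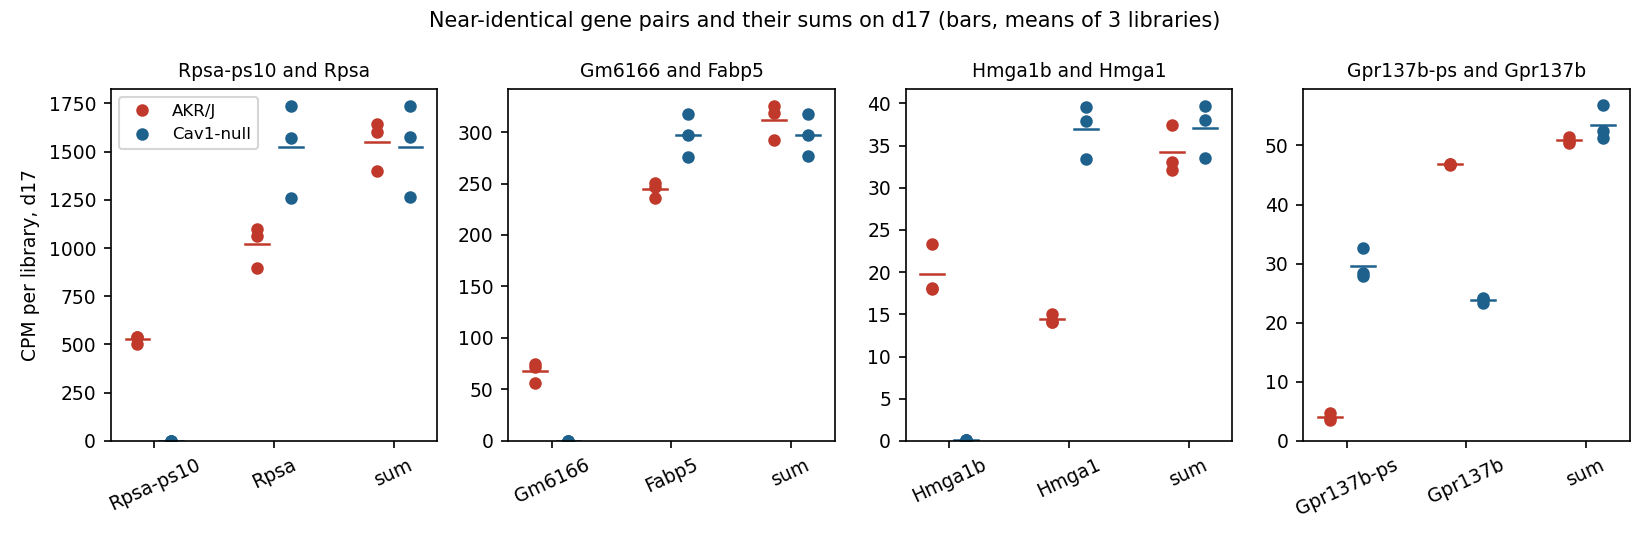
CPM per d17 library (linear axis) of a copy, of its protein-coding match and of their sum for 4 near-identical pairs, with a point for each library and a bar for the mean of 3 libraries of AKR/J or Cav1-null. Copy and match differ between the strains in opposite directions, while the means of the sums lie close together.

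Over the 105 higher copies with a match, the median log2 fold change was 5.91 for the copy and -0.06 for the match. The match was called lower for 31 of these copies, higher for 10, not called for 62 and not tested for 2, where 6.67% of all genes were lower and 5.73% higher. These are counts of copies, which share 96 different matches. The sums still differed for some pairs. Rps2 and Rps2-ps10 summed to 362, 417 and 441 CPM in AKR/J and 847, 607 and 795 CPM in Cav1-null, a log2 ratio of -0.88. Tmem181a and Tmem181c-ps summed to 74.3, 88.3 and 85.1 CPM and 42.9, 52.2 and 48.5 CPM, a log2 ratio of 0.79. How the counting treated reads with several matches is not given in the sources used here, so the fold changes of a copy or of its match alone are uncertain.

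In all, 34 genes were read in AKR/J at a mean of 1 CPM or more with at most 1 read in each Cav1-null library, and 9 genes showed the reverse. Of the 34 genes, 18 were processed pseudogenes and 7 were protein-coding, and for 29 of them AKR/J and Cav1-null did not overlap on d12 and d15 either. Gm14719, a copy of Ppdpf on the X chromosome, had 14.6, 14.6 and 14.2 CPM in AKR/J and 0, 0 and 0.0344 CPM in Cav1-null. Mdm4-ps, also on the X chromosome, had 7.79, 7.74 and 5.69 CPM in AKR/J and no read in Cav1-null, at least 66.6-fold higher against a floor of 3 reads in each library. Hrnr, Ivl, Krtap13, Calm4 and Gm20741, protein-coding genes of which the first 4 are known from the skin and its appendages or from epithelium, had 540, 116, 89, 494 and 272 reads in AKR/J replicate 1, no read in replicate 2 and at most 30 reads in replicate 3, so that a single library set their AKR/J means. For all 9 genes of the reverse group the strains did not overlap on d12 and d15 either. Some of these gaps were narrow: Gm26826 reached 0.388 CPM in AKR/J on d12 against 0.455 CPM or more in Cav1-null and was not called. Gm9269, Gm5345 and D830026I12Rik were not tested on d12. The share of all genes without overlap was 30.6% on d17 and was not computed for d12 and d15. The lncRNA gene AA388235 had no read in AKR/J and 12.4, 10.53 and 13.4 CPM in Cav1-null, at least 113-fold lower in AKR/J against the same floor.

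The largest falls among genes with an average log2 CPM of 3 or more were protein-coding genes and lncRNAs as well as copies. Myo7a, the unconventional myosin of sensory hair cells, had 2.8, 2.77 and 3.29 CPM in AKR/J and 37.3, 38.8 and 37.4 CPM in Cav1-null (log2 fold change -3.66 with an SE of 0.12, adjusted p = 1.21e-09), and C57BL/6J had 54.9, 39.5 and 40.6 CPM. H2-D1, a classical class I gene of the major histocompatibility complex (MHC), had 2.7, 1.37 and 1.94 CPM against 18.2, 24.7 and 19.2 CPM (log2 fold change -3.34 with an SE of 0.21, adjusted p = 4.93e-07). H2-T24, a nonclassical class I gene, had 1.28, 1.06 and 1.66 CPM against 12.8, 14.8 and 11.2 CPM (log2 fold change -3.25 with an SE of 0.20, adjusted p = 4.93e-07). H2-D1 and H2-T24 were the called members of 17 tested genes of MHC and antigen presentation, near the share of 12.4% over all genes (2 to 4 without single libraries, with 4 without AKR/J replicate 3), and the median log2 fold change of the list was -0.14. Hjurp, the chaperone that loads the centromeric histone, had 64.5, 62.2 and 48.3 CPM against 209.7, 227 and 209 CPM (log2 fold change -1.87 with an SE of 0.10, adjusted p = 1.13e-07). Ero1b, an oxidase of disulfide bond formation in the endoplasmic reticulum, had 5.89, 7.74 and 5.96 CPM against 26.5, 23.4 and 24.5 CPM (log2 fold change -1.91 with an SE of 0.14, adjusted p = 2.12e-06). For both genes all AKR/J libraries lay below all Cav1-null libraries. Akr1e1, an aldo-keto reductase, fell by 2.37 on the log2 scale, from 27.8, 26.3 and 27.3 CPM in Cav1-null to 5.78, 4.86 and 4.96 CPM in AKR/J. Dynlt1a, a dynein light chain gene, fell by 2.46 on the log2 scale while its near-identical neighbour gene Dynlt1c was called higher (log2 fold change 0.90), and their sums of 17.5, 21.8 and 19.6 CPM against 46.9, 43.4 and 44.1 CPM still differed. The remaining large falls were the lncRNA genes D030028A08Rik and Gm26782, the gene model Gm44164, the identifier ENSMUSG00000095041 without a symbol, Gpr137b-ps and Hba-a2.

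Of 18 tested genes that are known to vary between laboratory strains, 3 were higher and 2 were lower in AKR/J (against 5.73% and 6.67% of all genes, median log2 fold change -0.24), and 1 was lower without AKR/J replicate 2. Alad, the second enzyme of heme synthesis, had 50.6, 54.2 and 49.3 CPM in AKR/J and 16.3, 19 and 19.7 CPM in Cav1-null (log2 fold change 1.5 with an SE of 0.09, adjusted p = 4.48e-07), with 21, 17.6 and 21.6 CPM in C57BL/6J. Glo1, which detoxifies methylglyoxal, had 94.8, 93.2 and 95.2 CPM against 40.6, 45.1 and 48.6 CPM (log2 fold change 1.10 with an SE of 0.08, adjusted p = 1.78e-06). Wdfy1, an endosomal adaptor gene, had 107, 106 and 108 CPM against 51.8, 52.1 and 46.2 CPM (log2 fold change 1.11 with an SE of 0.08, adjusted p = 1.74e-06). For all 3 genes the AKR/J libraries lay above the Cav1-null libraries. Ide, the insulin-degrading enzyme, had 49.7, 46.2 and 44.5 CPM against 103, 104 and 101 CPM (log2 fold change -1.12 with an SE of 0.07, adjusted p = 7.08e-07), and its C57BL/6J values of 61.2, 48.8 and 56.4 CPM lay below the Cav1-null libraries, with replicate 2 within the range of AKR/J. Thy1, a surface protein of neurons, fell by 1.07 on the log2 scale.

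Slc7a11, the exchanger that imports cystine for glutathione in return for glutamate, was higher in AKR/J. It had 186, 157 and 148 CPM in AKR/J and 28.1, 18.3 and 19.6 CPM in Cav1-null (log2 fold change 2.91 with an SE of 0.16, adjusted p = 1.15e-07), while C57BL/6J had 20.3, 22.2 and 112 CPM. All AKR/J libraries lay above all Cav1-null libraries, and replicate 3 of C57BL/6J lay between them. The difference was also called on d15 (log2 fold change 3.75) and on d12 (2.95). In the list of 19 tested amino acid stress genes, Psat1 and Phgdh of serine synthesis were also higher (0.36 and 0.35 on the log2 scale), while Asns, asparagine synthetase, which lies 9.63 Mb from Cav1, was lower (-0.35). The list had a median log2 fold change of 0.19, and its counts of 3 higher and 1 lower stand against 5.73% and 6.67% of all genes. Without single libraries 1 or 2 members were higher and 0 to 2 lower, and with all 9 d17 libraries in 1 model 1 was called.

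Among progenitor and cell cycle genes, all DE members were higher in AKR/J. Of 14 intermediate progenitor genes, 10 were higher (against 5.73% of all genes) and none was lower, with a median log2 fold change of 0.67 (-0.0028 over all genes). Neurog2, a proneural transcription factor of cortical progenitors, had 37, 24.2 and 26.1 CPM in AKR/J and 10.1, 10.8 and 13.9 CPM in Cav1-null (log2 fold change 1.34 with an SE of 0.16, adjusted p = 0.000219). Eomes, the transcription factor that marks intermediate progenitors, had 34.2, 24.3 and 22.5 CPM against 12.6, 13.4 and 19.8 CPM (log2 fold change 0.84 with an SE of 0.18, adjusted p = 0.0104). Tfap2c, a further transcription factor of these progenitors, had 8.41, 7.17 and 5.89 CPM against 1.95, 2.22 and 4.34 CPM (log2 fold change 1.35 with an SE of 0.27, adjusted p = 0.00682). For all 3 genes the lowest AKR/J library lay above the highest Cav1-null library. In whole tissue, a difference in the number of cells of a type and a difference in RNA per cell cannot be told apart. Of 40 cell cycle genes, 15 were higher (against 5.73% of all genes) and none was lower, with a median log2 fold change of 0.44. The list sums of 1442, 1127 and 953 CPM in AKR/J and 903, 934 and 1002 CPM in Cav1-null overlapped, with AKR/J replicate 3 below Cav1-null replicate 3. Ccnb1, the cyclin of entry into mitosis, had 37, 29 and 22.3 CPM against 15, 18.7 and 17.3 CPM (log2 fold change 0.81 with an SE of 0.15, adjusted p = 0.00493). Its kinase Cdk1 had 34.4, 28.9 and 24.9 CPM against 17.1, 17.1 and 18.8 CPM (log2 fold change 0.75 with an SE of 0.12, adjusted p = 0.00138). Mki67, Birc5, Bub1, Ccna2, Nusap1 and Hells were also higher, by 0.56 to 0.71 on the log2 scale, while Pcna (0.02) and Ccnd2 (-0.01) were not called. Of 20 radial glia genes, 5 were higher (against 5.73% of all genes) and none was lower (median 0.29), and the list sums of 2385, 2654 and 2835 CPM and 2428, 2109 and 2408 CPM overlapped. Among them were Veph1, Prom1, Gli3 and Vim, with log2 fold changes of 1.06, 0.62, 0.54 and 0.47, whereas Sox2 (0.25), Pax6 (0.19) and Nes (0.29) were not called.

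Among synaptic, astrocyte and oligodendrocyte lineage genes, all DE members but the glial transcription factor gene Nfia (0.33) were lower in AKR/J. Of 44 synaptic genes, 22 were lower (against 6.67% of all genes) and none was higher, with a median log2 fold change of -0.30. Grin2b, the NMDA receptor subunit that prevails before birth, had 165, 169.7 and 146 CPM in AKR/J and 283, 296 and 277 CPM in Cav1-null (log2 fold change -0.82 with an SE of 0.08, adjusted p = 2.18e-05). Camk2a, the kinase of the postsynaptic density, had 42.8, 44 and 41.5 CPM against 63.4, 77.3 and 59.4 CPM (log2 fold change -0.62 with an SE of 0.10, adjusted p = 0.0013). Shank3, a scaffold of the same structure, had 89.2, 81.4 and 84.1 CPM against 103, 151 and 124 CPM (log2 fold change -0.55 with an SE of 0.11, adjusted p = 0.0058). All AKR/J libraries lay below all Cav1-null libraries for each of the 3 genes. Grin2a (-0.66), Grin3a (-0.49), Grm5 (-0.51) and Gria1 (-0.42) of the glutamate receptors and Syn1 (-0.34), Syn2 (-0.51) and Syt1 (-0.35) of the synaptic vesicle were lower too. Snap25 (-0.13), Vamp2 (-0.13), Gria2 (0.12) and the vesicular glutamate transporter genes Slc17a6 (0.01) and Slc17a7 (0.12) were not called. Of 20 projection neuron genes Mef2c (-0.40) and Lmo4 (-0.23) were lower, and of 20 interneuron genes Cxcr4 (0.49) was higher, 3 of 40 genes against 12.4% of all genes. The call of Lmo4 was lost on leaving out any of the 6 libraries and that of Mef2c on leaving out any but Cav1-null replicate 2, 3 other members were called higher without AKR/J replicate 3 or Cav1-null replicate 3, and the interneuron call was lost without AKR/J replicate 2. Another projection neuron gene was called lower without Cav1-null replicate 2, and an interneuron gene was called lower without Cav1-null replicate 1. The list medians were 0.02 and 0.03.

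Of 28 astrocyte genes, 6 were lower (against 6.67% of all genes) and 1 was higher (median -0.25). Gfap, the intermediate filament of astrocytes, had 1.8, 4.93 and 6.59 CPM against 17.9, 7.35 and 16.4 CPM (log2 fold change -1.63 with an SE of 0.40, adjusted p = 0.0203). Apoe, a lipid carrier, had 91.3, 88.2 and 100.3 CPM against 143, 172 and 143 CPM (log2 fold change -0.69 with an SE of 0.09, adjusted p = 0.000331). Agt, angiotensinogen, had 0.312, 0.379 and 0.416 CPM against 2.29, 3.07 and 2.34 CPM (log2 fold change -2.76 with an SE of 0.33, adjusted p = 0.000172). In each case the strains did not overlap, but the astrocyte transporter genes Slc1a2 (-0.07) and Slc1a3 (-0.25) were not called. Of 21 oligodendrocyte lineage genes, 7 were lower (against 6.67%) and none was higher (median -0.25). Pdgfra, the growth factor receptor of oligodendrocyte precursors, had 26, 26.2 and 29.2 CPM against 44.7, 39.3 and 40.3 CPM (log2 fold change -0.59 with an SE of 0.10, adjusted p = 0.00219). Lhfpl3, Gpr17, Cspg4, Olig1, Tnr and Mbp fell by 0.60, 0.69, 0.57, 0.45, 0.45 and 0.43 on the log2 scale.

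**Figure D3:**
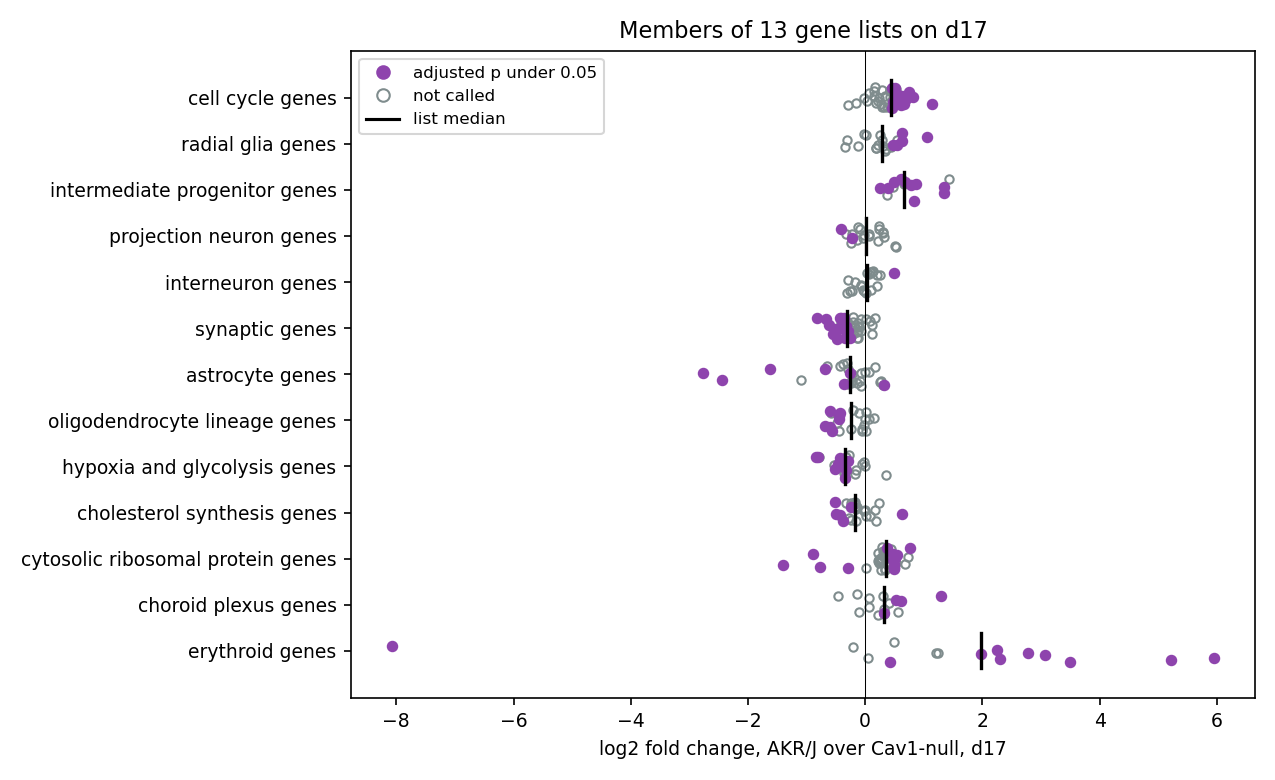
Log2 fold change of AKR/J over Cav1-null on d17 for each tested member of 13 gene lists, with a filled point for a gene called at an adjusted p under 0.05, an open point for a gene not called and a bar for the list median. The medians of cell cycle and progenitor lists lie to the right of 0, those of synaptic, astrocyte and oligodendrocyte lists to the left, and erythroid genes spread from -8.07 to 5.95.

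The counts of these lists depended on the model and on the libraries in it. With all 9 d17 libraries in 1 model, 0 synaptic, 4 intermediate progenitor, 3 cell cycle, 1 radial glia, 1 oligodendrocyte lineage and 2 astrocyte genes were called, in the same directions. Without C57BL/6J replicate 1 in that model, these counts were 10, 7, 11, 3, 5 and 4. With all 27 libraries in 1 model they were 0, 1, 3, 1, 0 and 1, and with the replicate block 10, 7, 12, 5, 4 and 4. When 1 of the 6 libraries was left out, 12 to 20 synaptic genes were lower and 7 to 9 intermediate progenitor genes and 9 to 20 cell cycle genes were higher, with up to 2 cell cycle genes lower (without AKR/J replicate 1). The synaptic count was lowest without AKR/J replicate 2, and the cell cycle count was 9 without AKR/J replicate 2 and 10 without Cav1-null replicate 2. Astrocyte genes lower were 3 to 9, with 3 without AKR/J replicate 2 or Cav1-null replicate 3, and oligodendrocyte lineage genes lower were 3 to 6, with 3 without Cav1-null replicate 2 and 4 without AKR/J replicates 2 or 3. Of the radial glia genes, 3 to 5 were higher, with 3 without Cav1-null replicate 2, and 1 was lower without AKR/J replicate 1.

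The genes that differed between the strains on d17 were set beside the genes that change as the brain develops, taken from libraries outside the comparison. In C57BL/6J, 13% of 19888 genes were DE from d15 to d17, with 7.46% rising and 5.58% falling. Of those, 1434 genes that rose were also tested here, and 304 (21.2%) of these were lower and 29 (2.02%) higher in AKR/J on d17. Of 1097 genes that fell over these days, 218 (19.9%) were higher and 14 (1.28%) lower in AKR/J. Of the 16809 genes that did neither, 833 (4.96%) were higher and 1005 (5.98%) lower. Cav1-null mice from d12 to d15, a choice made after seeing the data, with 23.4% of genes DE (11.6% rising and 11.8% falling), gave like shares: of 2313 genes that rose, 481 (20.8%) were lower and 42 higher in AKR/J on d17, and of 2301 that fell, 308 (13.4%) were higher and 55 lower. The C57BL/6J lists depended on single libraries. Without replicate 3 of d17, 92 genes tested here rose and 68 fell, with 46 of the former lower and 40 of the latter higher in AKR/J. Without replicate 1, 3088 genes tested here rose and 3758 fell, and 13.9% of the former were lower and 8.94% of the latter higher. Without 1 of the d15 libraries 267 to 781 genes were called in C57BL/6J, and their sides on d17 were not computed. The C57BL/6J libraries also differed at the 68 genes with the clearest strain difference. Of these genes, 15, 11 and 9 lay near the AKR/J level in the d15 libraries and 15, 1 and 4 in the d17 libraries. How far this enters the C57BL/6J shares was not tested.

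**Figure D4:**
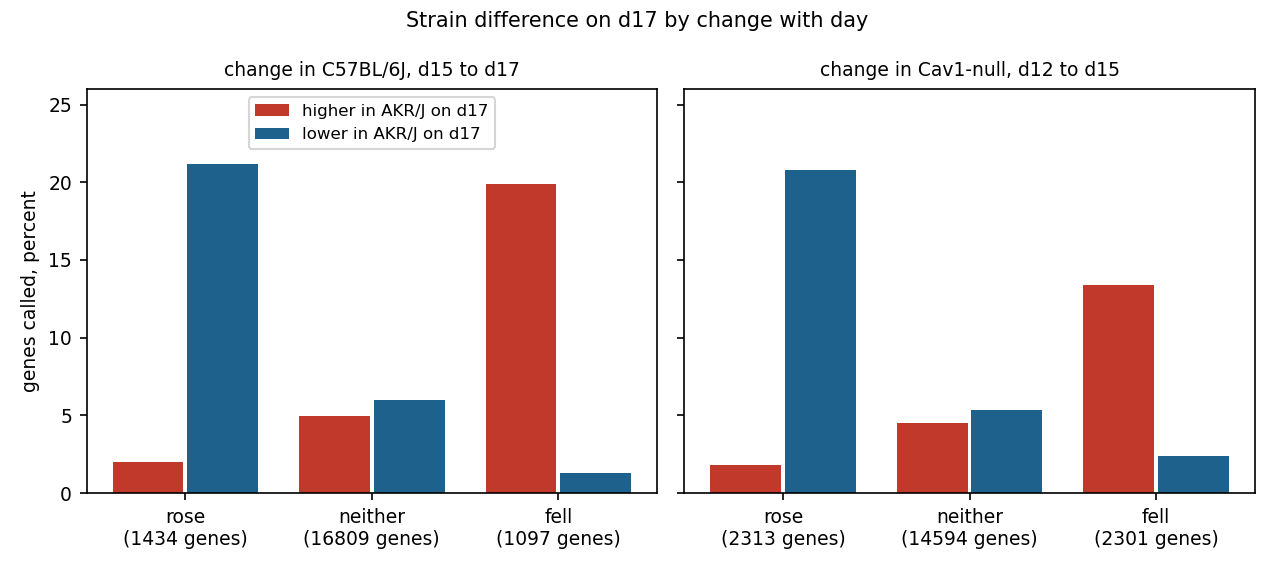
Percent of genes called higher or lower in AKR/J than in Cav1-null on d17 (linear axis from 0), for genes that rose, fell or did neither with day in C57BL/6J from d15 to d17 or in Cav1-null from d12 to d15. The bar for lower is tallest among genes that rose with day, and the bar for higher is tallest among genes that fell.

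Of 7 haemoglobin genes tested, 6 were higher and 1 was lower in AKR/J (against 5.73% and 6.67% of all genes). Hbb-bs, an adult beta-globin gene, had 6467, 2436 and 13776 CPM in AKR/J and 1487, 317 and 912 CPM in Cav1-null (log2 fold change 3.07 with an SE of 0.59, adjusted p = 0.00551). Hba-a1, an adult alpha-globin gene, had 2530.1, 808 and 3324 CPM against 484, 125 and 372 CPM (log2 fold change 2.77 with an SE of 0.50, adjusted p = 0.00372). Hba-a2, its near-identical neighbour, had 0.9, 0.152 and 1.21 CPM against 311, 78.1 and 238 CPM (log2 fold change -8.07 with an SE of 0.59, adjusted p = 2.33e-06), and C57BL/6J had 429, 405 and 414 CPM. The sums of Hba-a1 and Hba-a2 were 2531, 808 and 3325 CPM in AKR/J and 796, 203 and 609.6 CPM in Cav1-null, with a log2 ratio of the means of 2.05, so that the alpha-globin total was higher in AKR/J like the beta-globin. The embryonic globin gene Hbb-y had 38.5, 8.19 and 46.5 CPM against 0.8, 0.296 and 0.413 CPM (log2 fold change 5.95 with an SE of 0.64, adjusted p = 7.87e-05). Hba-x, the embryonic alpha-like globin gene, had 6.3, 1.67 and 5.58 CPM against 0.417, 0.406 and 0.379 CPM (log2 fold change 3.50 with an SE of 0.47, adjusted p = 0.000471). Alas2, the first enzyme of heme synthesis in red cells, had 112, 48.5 and 205 CPM against 48.6, 14.3 and 30.3 CPM (log2 fold change 1.98 with an SE of 0.47, adjusted p = 0.0163), with the lowest AKR/J library just below the highest Cav1-null library. Of 15 tested erythroid genes, 9 were higher and 1 was lower (against 5.73% and 6.67% of all genes), with a median log2 fold change of 1.98, and Ahsp of the 20 listed was not found in the table by its symbol. The erythroid transcription factor genes Klf1 and Gata1 were at or below 0.665 CPM and were not tested. Summed over the list, the AKR/J libraries had 10541, 3951 and 19714 CPM and the Cav1-null libraries 2997, 931 and 2124 CPM. These sums were uneven within each strain, and how much fetal blood each dissected brain held was not tested. On d15 the adult beta-globin genes and Alas2 were called in the opposite direction, with log2 fold changes of -1.16 for Hbb-bs, -1.66 for Hbb-bt and -1.53 for Alas2. Without the erythroid genes, an alternative chosen after seeing the data, 2515 genes were DE, 20 synaptic genes were lower and 10 intermediate progenitor genes were higher.

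**Figure D5:**
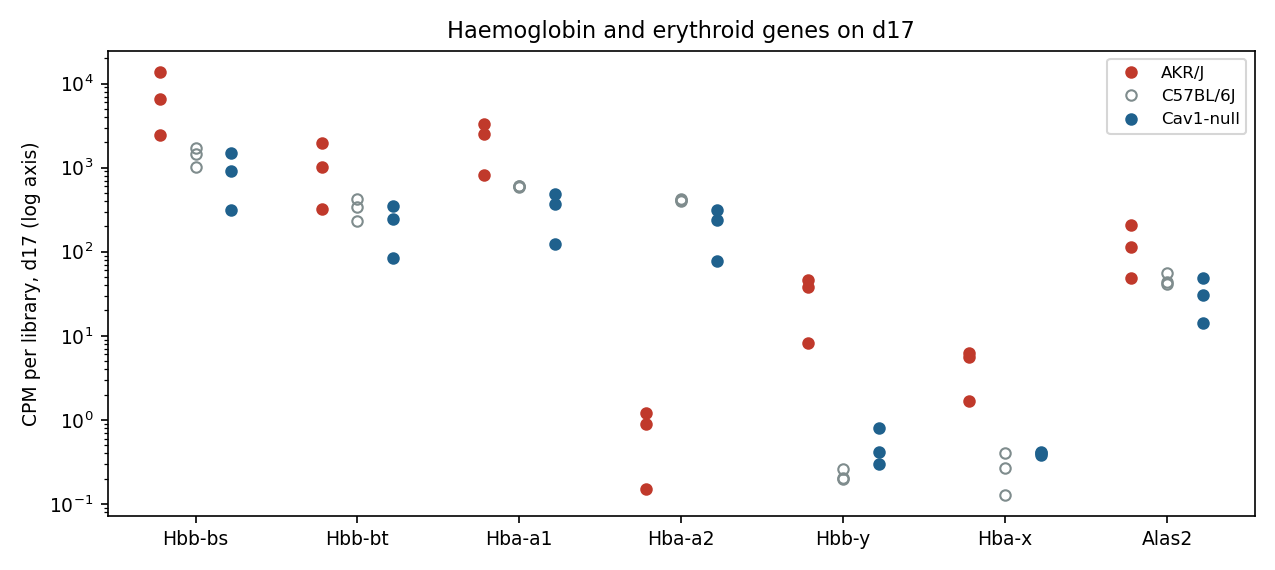
CPM per d17 library (log axis) of 7 haemoglobin and erythroid genes in AKR/J, C57BL/6J and Cav1-null, with a point for each library. All AKR/J points lie above all Cav1-null points for Hbb-bs, Hba-a1, Hbb-y and Hba-x, the groups overlap at 1 library each for Hbb-bt and Alas2, and AKR/J is at 0.152 to 1.21 CPM for Hba-a2.

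Of 22 genes of hypoxia and glycolysis, 8 were lower in AKR/J (against 6.67% of all genes) and none was higher, with a median log2 fold change of -0.34. Without single libraries 3 to 9 were lower, the lowest count without AKR/J replicate 2, and 5 without AKR/J replicate 3 or Cav1-null replicate 2. Eno1, the glycolytic enolase, had 131, 98.8 and 107 CPM in AKR/J and 167, 255 and 188 CPM in Cav1-null (log2 fold change -0.84 with an SE of 0.13, adjusted p = 0.00152). Pdk1, which restrains pyruvate oxidation, had 44.5, 43.2 and 47.1 CPM against 74.2, 98.5 and 65.2 CPM (log2 fold change -0.80 with an SE of 0.12, adjusted p = 0.00135). Vegfa, the growth factor of blood vessels, had 147, 148 and 172 CPM against 204, 279.8 and 198 CPM (log2 fold change -0.52 with an SE of 0.12, adjusted p = 0.0142). No library overlapped for the 3 genes, but Slc2a1 (-0.36), Hk2 (-0.53) and Pgk1 (-0.15) were not called, and 1 gene of the list was called with all 9 d17 libraries in 1 model. Reads of Eno1, of the gene Eno1b and of its copy Gm4735, both higher in AKR/J (6.80 and 5.91), summed to 165, 122 and 137 CPM and 168, 255 and 189 CPM, a log2 ratio of -0.53. Gapdh, also lower (-0.42), is near-identical to Gm13394, and their sums of 395, 354 and 363 CPM and 409, 480.3 and 447 CPM differed by a log2 ratio of -0.27. Of 24 cholesterol synthesis genes, 5 were lower, among them Insig1 (-0.52) and Sc5d (-0.49), and 1 was higher, against 6.67% and 5.73% of all genes, and the lower genes were 2 without AKR/J replicates 2 or 3 or Cav1-null replicate 2 and 3 without Cav1-null replicate 3. Of 40 cytosolic ribosomal protein genes, 10 were higher and 4 lower (against 5.73% and 6.67% of all genes, median 0.35), and the counts hold for the listed members only, since Rpsa (-0.56), Rpl29 (-1.60), Rpl34 (-1.07) and Rpl30 (-0.75), matches of copies that are not among them, were also lower. The 4 lower genes, Rps2, Rps18, Rplp0 and Rpl3, are all matches of copies that were higher in AKR/J, and the log2 ratios of the sums were -0.88 with Rps2-ps10, -0.86 with Rps18-ps5 and -0.22 with Rpl3-ps1. The count of higher ribosomal protein genes moved from 1 to 27 when single libraries were left out, and was 0 with all 9 d17 libraries in 1 model.

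Choroid plexus genes were higher in AKR/J for 4 of 15 members (against 5.73% of all genes, median 0.32). This count was 2 or 3 without single libraries (2 without AKR/J replicates 1 or 3 and Cav1-null replicates 1 or 2), 2 with all 9 d17 libraries, 2 with the replicate block and 0 with all 27 libraries in 1 model. Ttr, the thyroid hormone carrier made by this tissue, had 539, 495 and 486 CPM in AKR/J and 298, 372 and 334 CPM in Cav1-null (log2 fold change 0.62 with an SE of 0.08, adjusted p = 0.000409). Calml4, Kcne2 and Otx2 had log2 fold changes of 1.29, 0.53 and 0.33. Of 20 microglia and macrophage genes, Aif1 (1.69) and P2ry12 (1.36) were higher and C1qb (-0.68) was lower, 3 genes against 12.4% of all genes, and the call of C1qb was lost without Cav1-null replicates 1 or 3. Of 20 endothelial and mural genes, Flt1 (-0.66) and Cspg4 (-0.57) were lower, against 6.67% of all genes, with 0 lower without Cav1-null replicate 2, 1 without AKR/J replicates 2 or 3 or Cav1-null replicate 3, and 0 with all 9 d17 libraries. The sums of the endothelial list were 409, 328 and 341 CPM in AKR/J and 425, 394 and 379 CPM in Cav1-null. Of the dopamine and serotonin neuron genes, Slc6a3 (-1.44), the dopamine transporter, and Th (-0.84), tyrosine hydroxylase, were lower, 2 of 13 tested against 6.67% of all genes, with 1 without AKR/J replicates 2 or 3 or Cav1-null replicates 2 or 3. The 2 lower genes among 19 striatal and hypothalamic peptide genes were Nts (-1.08) and Pdyn (-0.66), against 6.67% of all genes. This count was 1 without AKR/J replicates 1 or 2 or Cav1-null replicates 1 or 2 and 0 without Cav1-null replicate 3. Of 19 hindbrain and cerebellar genes, Atoh1 (1.35), Barhl1 (0.53) and Lhx1 (0.48) were higher (against 5.73% of all genes). That count was 6 without Cav1-null replicate 1, 1 without AKR/J replicates 2 or 3 or Cav1-null replicate 3, 1 with the replicate block and 0 with all 9 d17 or all 27 libraries in 1 model. Of 11 tested Hox genes, which mark hindbrain and spinal cord, Hoxb3 alone was called higher, against 5.73% of all genes (log2 fold change 2.12 with an SE of 0.59, adjusted p = 0.0365). It had 2.91, 6.71 and 11.9 CPM in AKR/J against 3.51, 0.813 and 0.62 CPM, values that overlapped. The Hox sum was 21.7, 45 and 114 CPM in AKR/J and 52.7, 3.21 and 3.27 CPM in Cav1-null, and 0 to 3 Hox genes were called when single libraries were left out, other than 10 without Cav1-null replicate 1. Marker sums for skeletal muscle were 49, 50.4 and 46.4 CPM and 53.3, 37.5 and 45.2 CPM, and those for connective tissue and cartilage were 318, 257 and 298 CPM and 393, 291 and 293 CPM. These lists of tissue next to the brain overlapped between the strains. Single called members were Myh8 (1.32), a developmental myosin, in the muscle list and Col1a1 (-1.17), a collagen of bone and skin whose groups overlapped, in the connective tissue list. They were 1 of 13 and 1 of 19 tested genes, against 5.73% of all genes higher and 6.67% lower. Without single libraries these counts were 0 to 1 and 0 to 2, and with all 9 d17 libraries both were 0. Among the remaining lists, Egr3 (-1.03) and Npas4 (-0.69) of 18 immediate early genes were lower and Btg2 (0.62) was higher. These counts stand against 6.67% and 5.73% of all genes, and 0 were lower with all 9 d17 libraries in 1 model. Hspa8 (-0.52), a constitutive chaperone gene, was the called member of 14 heat shock genes, near the 6.67% of all genes that were lower. The list median was 0.05, and the sum of Hspa8 with its higher copy Gm15459 had a log2 ratio of -0.23. The edgeR test called 0 of 9 mitochondrially encoded, 0 of 12 epidermis and eye and 0 of 7 pituitary genes, with 1, 3 and 0 at an unadjusted p under 0.05, and the DESeq2 Wald test called 1, 1 and 0.

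Within 10 Mb of Cav1 on chromosome 6, 15 of 63 tested genes (23.8%) were DE, against 9.24% from 10 to 30 Mb away and 14.5% farther along the chromosome. Of the 15 genes, 11 were lower in AKR/J. Gm15581 (chromosome 6, 17206822 to 17385603), an lncRNA gene on the strand opposite to Cav1 whose span covers it, had 0, 0 and 0.0693 CPM in AKR/J and 4.35, 3.36 and 5.55 CPM in Cav1-null, and no read in the C57BL/6J libraries of d17 (log2 fold change -7.28 with an SE of 0.57, adjusted p = 4.2e-06). D830026I12Rik (chromosome 6, 17197589 to 17210206), the next lncRNA gene, had no read in AKR/J, 0.973, 1.07 and 1.14 CPM in Cav1-null and 0.0647, 0.135 and 0.0668 CPM in C57BL/6J. Both lncRNAs were at their highest in the strain that carries the targeted allele, with no overlap. How the counting used strand is not given in the sources used here. Reads of Gm15581 and of Cav1 or Cav2, which its span also covers, therefore cannot be told apart where they overlap. Cftr (chromosome 6, 18170686 to 18322767), a chloride channel gene, had 1.45, 1.18 and 1.66 CPM in AKR/J and 6.15, 5.1 and 3.65 CPM in Cav1-null (log2 fold change -1.77 with an SE of 0.26, adjusted p = 0.000946). Rpa3 (chromosome 6, 8255929 to 8259173), a subunit of the single-strand DNA binding protein RPA, had 46.5, 52.1 and 55.3 CPM against 19.6, 15.8 and 17.3 CPM (log2 fold change 1.56 with an SE of 0.12, adjusted p = 2.42e-06). The C57BL/6J libraries of d17 were uneven, with 1.88, 5.99 and 1 CPM for Cftr and 14, 21.1 and 32 CPM for Rpa3. The copy Rnps1-ps was higher in AKR/J, with 19.6, 16.6 and 16 CPM against 0.209, 0 and 0.207 CPM. By nuclear chromosome with tested genes, the share of DE genes ran from 9.05% on chromosome 16 to 17.3% on chromosome 17, which holds the MHC.

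The strain differences of d17 were compared with those of d12 and d15, which were measured in other fetuses. On d15, 3894 of 20172 genes (19.3%) were DE between the strains, and on d12, 3906 of 19955 (19.6%, with 9.65% higher and 9.93% lower). Of the genes higher on d17, 533 (45.8% of the d17 list and 27.5% of the d15 list) were also higher on d15, where 9.6% of all genes were higher. Of the genes lower on d17, 633 (46.8% and 32.3%) were also lower on d15, where 9.7% of all genes were lower. Without AKR/J d15 replicate 3, 3584 genes were DE on d15, and without Cav1-null d12 replicate 2 or AKR/J d12 replicate 1, 1431 or 2050 were DE on d12. On all 3 days, 574 genes (2.83% of those tested on d17 and 22.8% of the DE genes of d17) were called in the same direction, 239 higher and 335 lower, and without Cav1-null d12 replicate 2 these were 367 genes. Among those with an average log2 CPM of 3 or more, ranked by their smallest log2 fold change over the 3 days, Rpsa-ps10, Gm6969, Tdg-ps2, Gm13394 and Gm6166 had the largest lasting rises, and Hba-a2, Myo7a, Gpr137b-ps, D030028A08Rik and ENSMUSG00000095041 the largest lasting falls. Myo7a, for example, had log2 fold changes of -2.93, -3.45 and -3.66 on d12, d15 and d17. In contrast, 937 DE genes of d17 (37.2%) were called on neither d12 nor d15, which does not show that they differ between the days. A test of the difference itself, the interaction of strain and day over the 12 libraries of d15 and d17, called 462 of 21663 genes (2.13%, with 1.48% toward AKR/J and 0.655% toward Cav1-null on d17), of which 163 were also DE on d17. This number was 0 when Cav1-null d15 replicate 3 was left out, 16 without AKR/J d17 replicate 3 or Cav1-null d15 replicate 2, and up to 1130 without AKR/J d17 replicate 1.

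C57BL/6J, the background of the congenic strain, was mostly nearer to Cav1-null. For 1927 of the 2516 DE genes (76.6%) the mean log2 CPM of C57BL/6J on d17 was nearer to Cav1-null, and for 589 it was nearer to AKR/J. Taken alone, replicates 1, 2 and 3 of C57BL/6J were nearer to AKR/J for 884, 543 and 689 genes. Among the 1712 well-read DE genes, the C57BL/6J libraries overlapped Cav1-null and lay apart from AKR/J for 1009, and overlapped AKR/J and lay apart from Cav1-null for 168. Gcn1, an activator of the amino acid stress kinase GCN2, was of the latter kind, with 206, 176 and 181 CPM in AKR/J, 78.1, 104 and 98.7 CPM in Cav1-null and 193, 105 and 114 CPM in C57BL/6J, although 2 of the C57BL/6J libraries lay only just above Cav1-null. Pla2g4e, a phospholipase gene, had 34.6, 43.9 and 41.5 CPM in AKR/J, 18.7, 21.9 and 21.3 CPM in Cav1-null and 28.5, 44.2 and 41.3 CPM in C57BL/6J. Tatdn3 and Metap1d, which encode a DNase-like protein and a mitochondrial methionine aminopeptidase, were lower in AKR/J (-1.17 and -1.14) with C57BL/6J on the side of AKR/J. In the table of splice junctions, 129 of 55670 junctions had at least 10 reads in each AKR/J library of d17 and none in Cav1-null, and 171 showed the reverse. A junction of Rplp0 had 2776, 2883 and 2927 reads in AKR/J, none in Cav1-null, where the gene itself was read at a higher level, and 1334, 2297 and 0 reads in C57BL/6J. The table was filtered by the authors for multi-mapped reads and short overhangs, and whether a 0 stands for filtered reads was not tested.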

How the data were processed

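RNA of whole fetal brains was sequenced as poly-A selected, paired-end libraries in 3 strains on d12, d15 and d17, with 3 libraries in each group. The authors used FastQC for read quality, cutadapt and fastp for trimming and STAR for mapping to GRCm39. The deposited gene table holds whole read counts for 55416 Ensembl genes without normalization. The counting tool, its use of strand and of reads with several matches, and the versions are not given in the sources used here. The authors' splice table holds read counts of junctions from a 2-pass STAR run, filtered for multi-mapped reads and short overhangs. Neither table has a column of a sample outside the labels.

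Groups were taken from the labels. The d17 comparison used the 3 AKR/J and the 3 Cav1-null libraries in edgeR 4.0.16 (R 4.3.3), with filterByExpr, TMM scaling and the quasi-likelihood test, and genes with a Benjamini-Hochberg adjusted p under 0.05 were called DE. The 20285 genes tested had a biological coefficient of variation of 12.3%. Floors for genes without a read cover counting error only. The d12 and d15 comparisons were fitted in the same way, and the interaction of strain and day was fitted over the 12 libraries of d15 and d17. The code was tested on simulated data before use. Standard errors were obtained from the log2 fold change and the square root of its F statistic. Gene models came from the GRCm39 annotation, and copies were matched with blastn 2.17.0 (identity of at least 90% over at least 50% of the copy, partners that overlap the copy left out). The C57BL/6J positions used log2 of CPM plus 0.5.

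Named genes were Cav1, the sex genes, the 12 largest rises and falls among DE genes without overlap whose average log2 CPM was 3 or more, up to 4 called members of each list (or the 2 with the highest CPM), the 5 largest in each direction on all 3 days and the 3 largest interactions (both with the same limit), the 5 highest genes read in one strain, the 4 largest within 10 Mb of Cav1 and the 4 largest in each direction with C57BL/6J on the side of AKR/J. Other list members, the matches of copies, and Cftr, Rpa3, Hrnr, Ivl, Krtap13, Calm4 and Gm20741 were named after their values were seen. The comparison, the lists and the tests were chosen with earlier results of these data known, and some lists came from that earlier work. Alternatives tried were edgeR's likelihood ratio test, DESeq2 1.42.0 (Wald test), 3 other scalings, 2 other filters, 2 other thresholds, models over all 9 d17 or all 27 libraries, a block for the replicate number, and leaving out each library. Leaving out the erythroid genes, leaving C57BL/6J replicate 1 out of the model over 9 libraries, the Cav1-null day axis, leaving out C57BL/6J libraries from the day axis, and summing copies were added after seeing the data. Same-numbered AKR/J and Cav1-null libraries did not deviate together (correlations of -0.09, -0.03 and -0.05), so the main result has no block. The values of some single genes within the lists are not reported here.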

Additional observations from a re-analysis of the deposited data

Results flagged for a closer look

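The difference between the strains was not the same on d17 as on d15 for 17 of the named genes, by edgeR's quasi-likelihood test of the interaction of strain and day (Benjamini-Hochberg adjusted). The rule for naming took the 3 largest interactions in each direction. The number 17 is therefore in part set by that choice and is not a share to set against all genes. Each value below is the log2 fold change of AKR/J over Cav1-null on d17 minus that on d15. For 12 of them the strain difference had the opposite sign on d15. It was called on both days with opposite signs for 7, with d15 values of -1.16 for Hbb-bs, -1.66 for Hbb-bt, -1.53 for Alas2, -0.68 for Rps27, 1.09 for Dkk3, 0.79 for Plec and 0.67 for Flt1. Aif1 (0.21 on d15), Rpa3 (0.50), Fabp5 (-0.96), Rpl30 (-1.78) and Rpl34 (-2.16) had the same sign on both days. The difference between the days was positive for 11 genes. For the globin genes Hbb-bs and Hbb-bt it was 4.22 (SE 0.78, adjusted p = 0.0239) and 3.95 (SE 0.76, adjusted p = 0.0258). For Alas2, of heme synthesis, it was 3.51 (SE 0.64, adjusted p = 0.0239). For the microglial gene Aif1 it was 1.47 (SE 0.31, adjusted p = 0.0331). For the ribosomal protein gene Rps27 it was 1.43 (SE 0.26, adjusted p = 0.0233). For Ttr, of the choroid plexus, it was 0.91 (SE 0.17, adjusted p = 0.0252). For Rpa3, near Cav1, it was 1.05 (SE 0.15, adjusted p = 0.013), for the glutamate receptor gene Gria2 0.94 (SE 0.17, adjusted p = 0.0226) and for Fabp5, the match of Gm6166, 0.69 (SE 0.12, adjusted p = 0.0233). For the ribosomal protein genes Rpl30 and Rpl34 it was 1.02 (SE 0.14, adjusted p = 0.013) and 1.08 (SE 0.24, adjusted p = 0.0356). It was negative for 6 genes. For Dkk3, a secreted protein related to Wnt antagonists, it was -1.55 (SE 0.32, adjusted p = 0.0293). For Flt1, a receptor of vascular growth factors, it was -1.34 (SE 0.25, adjusted p = 0.0239). For the cytoskeletal linker gene Plec it was -1.24 (SE 0.22, adjusted p = 0.0225). For Eno1 it was -1.08 (SE 0.21, adjusted p = 0.0262). For the glycolysis list members Slc2a1 and Pgk1 it was -1.35 (SE 0.27, adjusted p = 0.028) and -0.83 (SE 0.15, adjusted p = 0.0242). Of 21663 genes 462 passed this test, 320 of them with a positive value, and 0 passed it without Cav1-null d15 replicate 3.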

How the results depend on the processing

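The number of DE genes on d17 was 2516 and stayed within 1.5 times of this with DESeq2 (2944), the likelihood ratio test (3205), 3 other scalings (2381 to 2517), no filter (3602), at least 10 reads in every library (2128) and without the erythroid genes (2515). It was 1417 with the replicate block, although the numbers do not pair the libraries, 757 with all 9 d17 libraries (1432 without C57BL/6J replicate 1), 639 with all 27 libraries, 1115 at an adjusted p under 0.01, 759 at 2-fold or more, and 1376 to 2337 without single libraries, with 1535 and 1595 without Cav1-null replicates 2 and 3 and 1376 without AKR/J replicate 2. On d15 (3894) it was 1586 with all 27 libraries, 1506 at 0.01, 1181 at 2-fold, and 1746 to 4503 without single libraries, the lowest values (1944, 1746 and 1930) without Cav1-null replicates 1, 2 and 3. On d12 (3906) it was 8307 with all 27 libraries, 1099 at 0.01, and 1272 to 7370 without single libraries, where AKR/J replicates 1, 2 and 3 gave 2050, 7370 and 2069 and Cav1-null replicates 1 and 2 gave 1272 and 1431. Library sizes alone on d12 moved the median of all genes to -0.41 and the share of DE genes that were higher to 28.6% from 49.3%. The count of 574 genes on 3 days was 373, 241 and 271 with all 27 libraries, at 0.01 and at 2-fold, and 354 to 671 without single libraries, the lowest without Cav1-null d12 replicate 1. The interaction count (462) was 1825 with DESeq2, 1397 with the likelihood ratio test, 1997 with no filter, 811 with at least 10 reads, 34 with the block, 0 with all 27 libraries, 0 at 0.01, 115 at 2-fold, and 0 to 1130 without single libraries. The number of genes that changed from d15 to d17 in C57BL/6J (2594) was 4581 with DESeq2, 4181 with the likelihood ratio test, 4565 with all 27 libraries, 382 at 0.01, 1436 at 2-fold, and 160 to 6990 without single libraries. Library sizes alone and the upper quartile moved its share that rose from 57.2% to 68.4% and 67.5%, with medians of all genes at 0.17. That share was 35.2% with all 27 libraries in 1 model and 45.8% without C57BL/6J d17 replicate 1. Of genes read in AKR/J only (34), 15 remained at 2 CPM and 18 at no read in Cav1-null, and the reverse group (9) had 25 at 0.5 CPM and 3 at 2 CPM. Of 141 named genes tested, 75 changed no call under any alternative fit that tested them. No fold change reversed where the gene was called in the main or the alternative fit, and signs of genes called in neither were not compared. The thresholds of 0.01 and 2-fold were not applied to the named genes. With all 9 d17 or all 27 libraries in 1 model, the calls of 52 and 57 of the named genes were lost. The causes were not tested. Depth limits the genes with few reads, whose folds against no read are bounds.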
